A study of Mus musculus with 15 samples.

Results

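AMPA receptors are tetramers of the GluA1 to GluA4 proteins, which are encoded by Gria1, Gria2, Gria3 and Gria4, and they carry most fast excitatory transmission in the brain. TARPs (transmembrane AMPA receptor regulatory proteins), encoded by 6 of the Cacng genes, are auxiliary subunits that bring the receptors to the surface and to the synapse and slow their gating. The GluA2 subunit, in its edited form, makes a receptor impermeable to calcium, and fast-spiking interneurons are known for receptors that are poor in GluA2 and rich in GluA1 and GluA4, with fast kinetics. The genes described here are the 4 Gria genes and the TARP genes Cacng2, Cacng3, Cacng4, Cacng5, Cacng7 and Cacng8, chosen by name: 10 of the 18193 genes with a probe set of their own. Each probe set annotated to one of these symbols alone was taken, which gave 22 probe sets, 10 for the AMPA receptor subunits and 12 for the TARPs.

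The study followed GFP-labelled fast-spiking interneurons of the mouse primary somatosensory cortex (S1) through maturation, at postnatal day (P) 7, P10, P15, P25 and P40, the last group covering P40 to P45. All groups were G42 transgenic mice, a line known for GFP under the Gad1 promoter in parvalbumin-class interneurons, and no other genotype or treatment was compared. Each of the 15 Affymetrix mouse whole-genome arrays came from a different animal, 3 per age, and from 23 to 85 neurons picked by hand after protease dissociation. Values are on the log2 scale as deposited, and a level of 5 was taken as the limit between signal and background.

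The labelled cell type was checked first. Pvalb, the calcium-binding protein that defines the class, averaged 3.62, 9.49, 13.12, 14.11 and 14.28 from P7 to P40, so it was at background at P7. Gad1 and Gad2, which make GABA, and Slc32a1, which loads it into vesicles, exceeded 9 on all arrays. Slc17a7, the glutamate transporter of excitatory neurons, stayed at or under 2.62. Sst, a peptide of another interneuron class, exceeded 5 on 14 of the 15 arrays, with a span of 1.72 to 13.04. Its means were 11.53, 10.43, 11.65 and 11.96 from P7 to P25. At P40 it read 8.34 ± 5.76 (SD, n = 3), and the lowest array was of that age. Of 9 markers of other interneuron classes, 4 exceeded 5 on all arrays at P7, P10, P15 and P25, and 3 did at P40. Npy, at 9.98 to 14.32, Cck, at 7.76 to 12.63, and Reln, at 7.80 to 12.41, were among them at every age. Sst was among them at P7, P10, P15 and P25. The log2 of the summed levels of this list ran from 12.55 to 15.18 over the ages. Erbb4, a further marker of the parvalbumin class, lay at 3.60 to 5.27. Markers of other cells were not absent. Of 5 oligodendrocyte markers on the array, 2 exceeded 5 on all arrays at P7, P10, P15 and P40, and 3 did at P25. They were Cnp, at 8.64 to 11.01 over all ages, and Mbp, at 10.48 to 11.58 at P25 and 5.09 to 8.93 at the other ages, with Mobp added at P25, while Mog and Mag stayed under 5. As the log2 of summed levels, this list gave 10.74 to 11.07 at P7, 9.68 to 10.59 at P10, 9.84 to 9.96 at P15, 11.01 to 12.2 at P25 and 8.93 to 9.92 at P40. The 8 astrocyte markers summed to 6.23 to 7.70 at P7, 8.55 to 10.01 at P10, 6.12 to 7.12 at P15, 8.12 to 10.27 at P25 and 6.0 to 8.43 at P40. Of these, 1 exceeded 5 on all arrays at P10 and 2 did at P25, and 0 did at the other ages. The 8 excitatory neuron markers summed to 6.63 to 7.50 at P7, 8.7 to 9.27 at P10, 6.48 to 8.75 at P15, 6.31 to 6.55 at P25 and 6.28 to 6.39 at P40, and 1, Nrgn, exceeded 5 on all P10 arrays. The lists for oligodendrocyte precursors, microglia and vascular cells had 0 markers over 5 on all arrays of any age, with sums of at most 7.53. The part of these signals in the results was not tested.

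Some arrays stood apart in their controls. P15 replicates 2 and 3 had the cre spike-in at 2.24 and 2.32, against at least 13.449 elsewhere. P25 replicate 2 had the lowest signal at the 5' end of actin, 4.96, against 7.688 to 10.624 on the other 14 arrays. All 3 P25 arrays were low along the rest of actin, at 10.995 to 12.878 at the 3' end, against 13.373 or more on the other 12 arrays, and at 6.482 to 9.534 in the middle, against 10.497 or more. The drop from the 3' to the 5' end of actin, a measure of how far the amplified RNA reaches, was 3.93 ± 0.55 at P40 and 5.77 ± 0.98 at P7 (SD, n = 3 each). Its part in the results was not tested beyond a fit with it as a covariate.

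Between P40 and P7, Gria1, Gria3 and Gria4 rose, Cacng4 and Cacng5 fell to background, and Gria2 and Cacng2 passed no gene-level test. Cacng3, Cacng7 and Cacng8 were at background on all arrays. Of the 10 genes, 7 had a representative probe set over 5 on at least 3 arrays and were tested with limma, a moderated linear model, with Benjamini-Hochberg adjustment over all 9663 genes. At an adjusted p under 0.05, 5 of these 7 (71.4%) were called for P40 minus P7, 3 higher and 2 lower. Change was common in these cells: 45.2% of all genes were called, 27.5% higher and 17.6% lower. The median log2 difference was 0.24 over the 7 genes and 0.18 over all genes tested. Cacng4 and Cacng5 passed the filter on low values only through the young ages, where they are high, so that they had to differ and their calls add no weight to the count. The arrays of P40 and P7 did not overlap for the same 5 genes, against 55.7% of all genes. The F test over the 5 ages called them too (71.4%), against 47.2% of all genes. Cacng4 and Cacng5 had to differ in both of these counts as well, so neither count is read against its share. In such pools of cells, fewer cells expressing a gene and less RNA per cell cannot be told apart.

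Upstream DNA is shown for 3 of the genes whose courses differ: Gria2, which passed no test, Gria4, which rose, and Cacng5, which fell to background. RefSeq (GRCm38.p6) windows of 300 bases, 250 before and 50 after the annotated start, were at hand for 7 of the 10 genes: Gria2, Gria4, Cacng2, Cacng3, Cacng5, Cacng7 and Cacng8. The Gria2 window is chr3:80802786-80803085, the Gria4 window chr9:4796185-4796484 and the Cacng5 window chr11:107915006-107915305, all on the minus strand. Capitals mark matches to 2 of the motifs searched. One is the core of RE1, the element bound by the neuronal repressor REST, searched as AGCACC and GGACAG with 2 bases between them, and the other is the GC box GGGCGG.

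Gria2: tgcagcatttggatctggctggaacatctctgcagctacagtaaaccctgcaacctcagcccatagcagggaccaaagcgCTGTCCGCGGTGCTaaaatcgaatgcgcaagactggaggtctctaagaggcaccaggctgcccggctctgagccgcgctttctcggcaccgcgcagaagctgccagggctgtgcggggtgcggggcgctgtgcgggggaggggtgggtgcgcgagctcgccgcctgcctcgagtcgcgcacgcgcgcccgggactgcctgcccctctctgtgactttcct

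Gria4: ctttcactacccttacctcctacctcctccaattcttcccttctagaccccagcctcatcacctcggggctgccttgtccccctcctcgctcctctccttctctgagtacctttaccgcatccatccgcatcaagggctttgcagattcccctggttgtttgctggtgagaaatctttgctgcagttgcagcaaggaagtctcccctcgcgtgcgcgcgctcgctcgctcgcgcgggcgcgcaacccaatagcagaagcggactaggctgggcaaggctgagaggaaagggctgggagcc

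Cacng5: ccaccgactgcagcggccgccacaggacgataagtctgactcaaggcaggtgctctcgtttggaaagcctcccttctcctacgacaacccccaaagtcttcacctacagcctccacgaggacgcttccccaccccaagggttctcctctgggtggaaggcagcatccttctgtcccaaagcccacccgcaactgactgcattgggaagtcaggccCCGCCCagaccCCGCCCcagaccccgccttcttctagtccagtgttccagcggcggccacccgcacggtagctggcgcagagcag

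The Gria2 window held 1 RE1 core, which starts at position -170 from the start site and reads in the opposite direction. Of 32851 promoter windows of the same length, 17 (0.0517%) held that core. The Cacng5 window shown held 2 GC boxes, at positions -35 and -24, a motif that 35.7% of all windows held. Another Cacng5 window, at a further annotated start (chr11:107911313-107911612), held 0 GC boxes. The Gria4 window held neither. The TATA box TATAAA (13.6% of windows), the E-box CACGTG (7.15%) and the cyclic AMP response element TGACGTCA (1.79%), searched on both strands like the others, occurred in none of the 8 windows of the member genes. These matches describe letters in a window and carry no statement about binding.

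Gria4 encodes GluA4, a subunit of fast kinetics, and its change was the clearest among the AMPA receptor subunits. Probe set 1435722_at read 11, 10.13 and 10.35 at P7, 10.50, 10.70 and 11.33 at P10, 11.16, 11.85 and 11.92 at P15, 12.01, 11.90 and 11.63 at P25, and 12.42, 11.96 and 12.11 at P40. The age means followed the order of age, and all P40 arrays lay above all P7 arrays. The level was 3.19-fold higher at P40 than at P7, a log2 difference of 1.67 (SE 0.28, adjusted p = 0.00023, limma), and the F test over the 5 ages gave an adjusted p of 0.00077. No step between neighbouring ages was called. The step with the lowest p was P15 minus P10, at 0.80 on the log2 scale (adjusted p = 0.072). It passed the threshold without P7 replicate 1 (0.80, adjusted p = 0.045), without P10 replicate 3 (1.04, adjusted p = 0.022) or without P15 replicate 1 (1.04, adjusted p = 0.029). It also passed with array weights (1.00, adjusted p = 0.005). A further probe set, 1440891_at, differed by 0.75 (SE 0.61, adjusted p = 0.34), and 1421351_at stayed at or under 3.09 on all arrays. With the mean of the probe sets of each gene in place of the brightest one, the Gria4 difference was 0.91 (adjusted p = 0.021). With the actin 3' to 5' drop as a covariate it was 1.10 (adjusted p = 0.012).

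Gria1 encodes GluA1, a subunit that traffics to synapses with activity, and it was higher at P40 than at P7 with more scatter between arrays. Probe set 1448972_at read 11.48, 12.24 and 12.34 at P7, 13.04, 12.84 and 12.45 at P10, 12.02, 13.31 and 13.52 at P15, 11.71, 11.09 and 12.61 at P25, and 13.60, 12.90 and 13.48 at P40. The 3 P40 arrays were above the 3 P7 arrays, and the lowest array of all was P25 replicate 2. The level was 2.48-fold higher at P40 than at P7 (log2 difference 1.31, SE 0.41, adjusted p = 0.016, limma). That call was lost without P7 replicate 1 (1.04, adjusted p = 0.066), P40 replicate 1 (1.17, adjusted p = 0.062) or P40 replicate 3 (1.23, adjusted p = 0.053), and with the actin drop as a covariate (0.97, adjusted p = 0.19). The course was not even: the P25 mean lay 2.21-fold below that of P15, and the P40 mean 2.87-fold above that of P25, but neither step was called (adjusted p = 0.12 and 0.11). P25 is also the age whose arrays were all low in actin, and the part of that in the dip was not tested. Without P15 replicate 1, P25 minus P15 was called (-1.61, adjusted p = 0.026), and without P25 replicate 3, P40 minus P25 was called (1.93, adjusted p = 0.029). With array weights both steps were called (-1.68, adjusted p = 0.0029, and 1.86, adjusted p = 0.0013). P40 minus P25 was also called with no filter (1.52, adjusted p = 0.035). Over the 15 arrays this probe set went with the actin 5' signal, at r = 0.68, given as a description. A second probe set, 1435239_at, read 12.67, 12.07 and 12.31 at P40, against 11.95, 11.36 and 11.54 at P7. Its P40 and P7 arrays did not overlap, with a log2 difference of 0.73 (SE 0.34, adjusted p = 0.096) that did not pass the test.

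Gria3, which encodes GluA3, was also higher at P40. Probe set 1434728_at read 11.16, 11.15 and 11.50 at P7, 11.43, 12.17 and 11.83 at P10, 11.73, 11.27 and 11.29 at P15, 11.85, 12.15 and 11.87 at P25, and 12.79, 11.82 and 12.26 at P40. P40 lay above P7 on every array, while P10 overlapped with both, P15 with P7 and P25 with P40. The difference was 1.02 on the log2 scale, or 2.03-fold (SE 0.25, adjusted p = 0.0038, limma), and no step was called. Steps of Gria3 were called only with array weights: P15 minus P10 (-0.66, adjusted p = 0.041) and P25 minus P15 (0.66, adjusted p = 0.038). Its second probe set, 1420563_at, took another course: 8.23, 8.49 and 9.63 at P7, 9.06, 9.93 and 8.85 at P10, 8.74, 7.80 and 7.14 at P15, 6.80, 6.03 and 8.36 at P25, and 10.03, 9.09 and 9.54 at P40. The P25 arrays of this probe set lay below all P40 arrays, a 5.62-fold difference (log2 2.49, SE 0.58, adjusted p = 0.044 over 15381 probe sets). That call held in 5 of the 15 fits that each leave out 1 array and was lost with replicate number as a block (adjusted p = 0.075). The P25 arrays were those low in actin, and over the 15 arrays the probe set went with the 3' signal of actin at r = 0.70. Its P40 minus P7 difference of 0.77 was not called (adjusted p = 0.30). With the mean of both probe sets the Gria3 call was lost (0.90, adjusted p = 0.064).

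Gria2, which encodes the calcium-limiting subunit GluA2, was high at all ages, and no probe set of it passed the test of P40 minus P7. Probe set 1434146_at read 12.50, 12.09 and 12.16 at P7, 12.77, 12.42 and 12.76 at P10, 12.44, 12.20 and 12.46 at P15, 12.80, 12.50 and 12.44 at P25, and 12.33, 12.34 and 12.54 at P40. The P40 arrays lay within the range of the P7 arrays but for 1 array. The log2 difference was 0.16 (SE 0.16, adjusted p = 0.46, limma), and the F test over the ages gave an adjusted p of 0.21. The other 2 probe sets differed by 0.16 (SE 0.29, adjusted p = 0.70) and 0.09 (SE 0.53, adjusted p = 0.91). These values do not show that the level was constant. The sign of the difference also rests on the scaling, since it was -0.06 when all arrays were given equal medians.

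**Figure D1:**
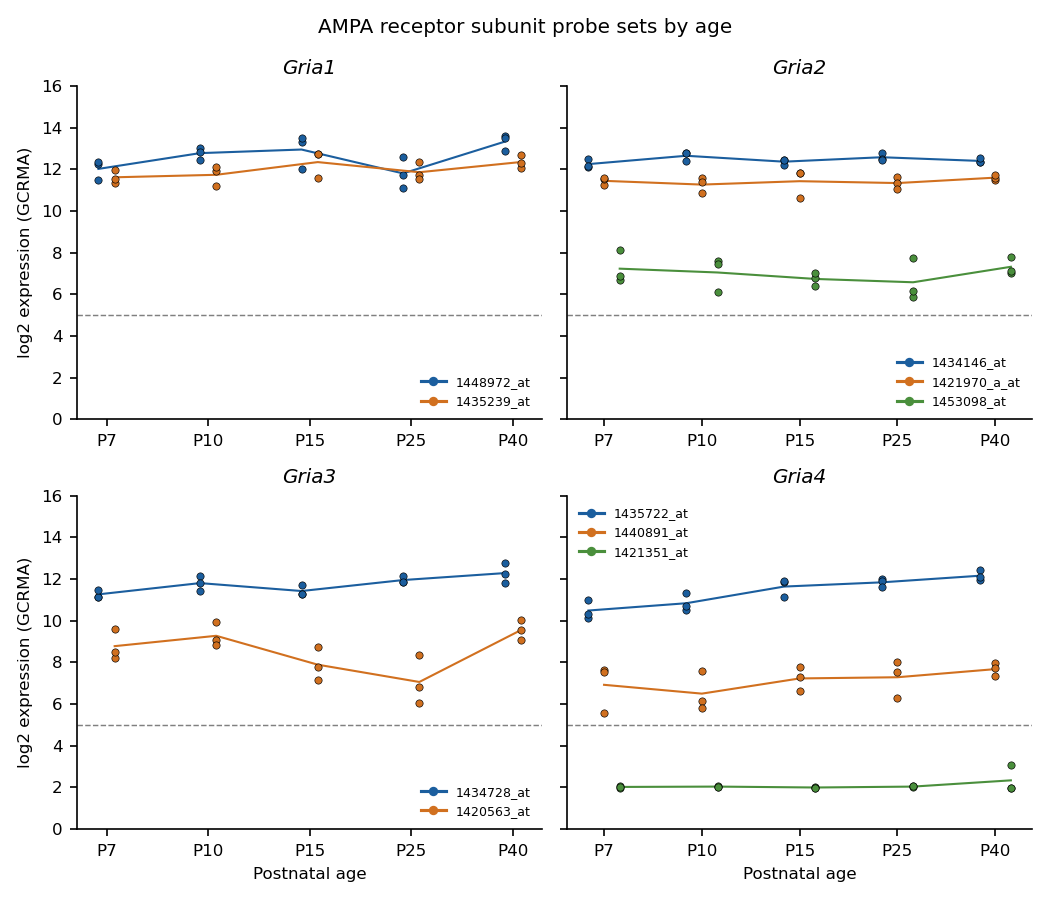
log2 expression of each AMPA receptor subunit probe set on each of the 15 arrays, by postnatal age; points are arrays, lines join age means, and the dashed line is the limit of 5. The brightest Gria4 probe set lies at 11.96 to 12.42 at P40, against 10.13 to 11 at P7, while the brightest Gria2 probe set stays between 12.09 and 12.80.

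To ask whether the subunits changed unequally, the log2 difference between the representative probe sets of each pair of Gria genes was taken within each array. Such a difference has no absolute meaning, since probe sets bind unequally. A shift of all log2 values of an array by the same amount cancels in it, while scaling that depends on the level need not. Gria4 minus Gria2 was -1.5, -1.96 and -1.81 at P7, -2.27, -1.72 and -1.43 at P10, -1.28, -0.35 and -0.54 at P15, -0.79, -0.59 and -0.81 at P25, and 0.09, -0.38 and -0.43 at P40. The P7 and P10 arrays were the 6 lowest. The mean was -0.24 ± 0.29 at P40 and -1.76 ± 0.23 at P7 (SD, n = 3 each), a change of 1.52 in favour of Gria4. An exact permutation test over all 1401400 partitions of the 15 arrays into ages gave p = 0.0011, or 0.0064 adjusted over the 6 pairs. Of those 6 pairs, only Gria4 with Gria2 passed.

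Gria1 minus Gria2 was 1.15 higher at P40 than at P7 and Gria3 minus Gria2 0.87 higher, with exact permutation p-values of 0.076 and 0.13, or 0.11 and 0.13 adjusted. In both pairs the P40 and P7 arrays did not overlap. The other 3 pairs changed by 0.36 (Gria4 minus Gria1), -0.29 (Gria3 minus Gria1) and 0.65 (Gria4 minus Gria3), with adjusted p-values of 0.11, 0.13 and 0.11 from the exact permutation test. Without P15 replicate 1, 4 of the 6 pairs passed: Gria4 minus Gria2, Gria1 minus Gria2, Gria3 minus Gria1 and Gria4 minus Gria3. With the mean of each gene's probe sets, 0 pairs passed in the exact permutation test, and 0 had an unadjusted p under 0.05.

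**Figure D2:**
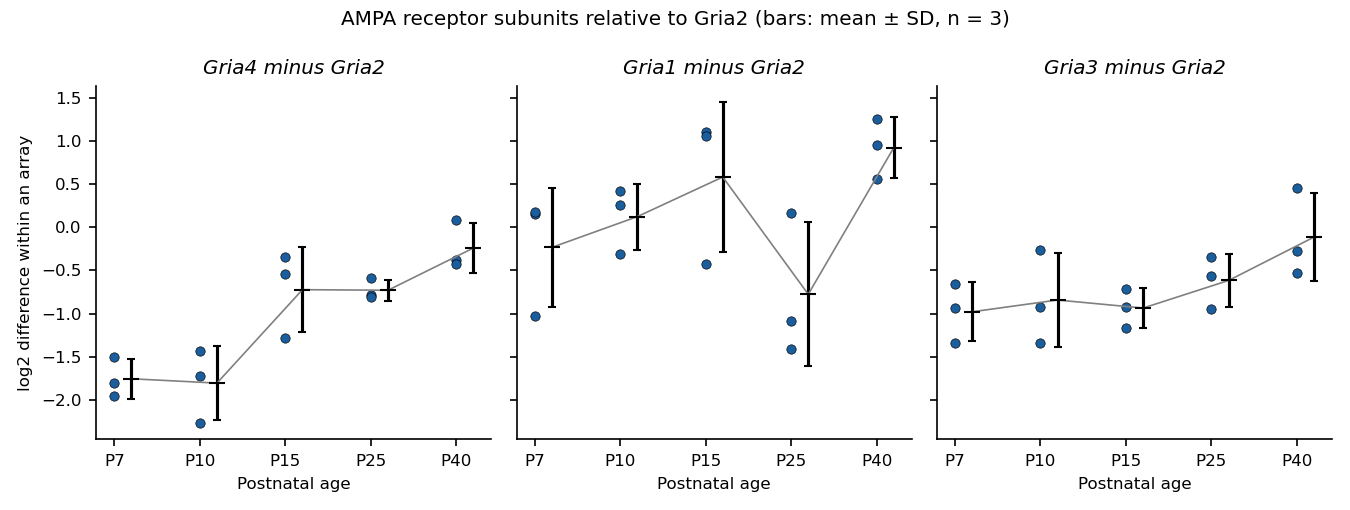
log2 difference within an array between Gria4, Gria1 or Gria3 and Gria2, by postnatal age; points are arrays, and bars give the mean ± SD (n = 3). Gria4 minus Gria2 averages -0.24 at P40, against -1.76 at P7, and the P25 arrays of Gria1 minus Gria2 spread widely, from under -1.4 to above 0.

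Among the TARPs, Cacng2 encodes stargazin, the founding member, whose loss causes the ataxia of the stargazer mouse. Its brightest probe set, 1440210_at, read 11.69, 12.27 and 12.46 at P7, 12.65, 12.47 and 12.18 at P10, 12, 12.44 and 12.44 at P15, 12.21, 12.32 and 12.75 at P25, and 12.41, 12.25 and 12.50 at P40. These groups overlapped, and the P40 minus P7 difference was 0.24 (SE 0.22, adjusted p = 0.38, limma). A second probe set, 1420596_at, read 11.38, 11.87 and 11.26 at P40, against 10.39, 10.25 and 10.85 at P7. Here the groups did not overlap, and the level was 2.01-fold higher at P40 (log2 difference 1.01, SE 0.22, adjusted p = 0.0027). The third, 1453363_at, differed by -0.30 (adjusted p = 0.73), and over the 15 arrays it went with the actin 3' signal at r = 0.70. The 3 probe sets of Cacng2 thus disagreed, and the call of 1420596_at was lost with the actin drop as a covariate (0.81, adjusted p = 0.058).

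Cacng4 encodes gamma-4, a TARP known for its early expression in the developing brain. Probe set 1450975_at read 10.23, 9.89 and 10.26 at P7, 8.96, 8.01 and 8.03 at P10, 4.01, 6.70 and 6.89 at P15, 3.81, 3.61 and 3.61 at P25, and 3.56, 3.59 and 3.55 at P40. All P7 arrays lay above all P10 arrays, and these above all P15 arrays. At P25 and P40 the gene was at background, where values have no order. The level was at least 34.9-fold lower at P40 than at P7, taking 5 as the bound (adjusted p = 7e-07, limma). The fall was spread over steps: P15 minus P10 (5.53-fold lower at P15, log2 difference -2.47, adjusted p = 0.017) and P25 minus P15 (at least 1.82-fold lower at P25, adjusted p = 0.039) were called, and P10 minus P7 was not (-1.79, adjusted p = 0.10). Over all genes, 2.79% were called lower for P15 minus P10 and 2.49% for P25 minus P15, but since the gene passed the filter through its high early levels, nothing is read from that contrast. The second call is the weaker one. It held in 7 of the 15 fits that each leave out 1 array, with adjusted p-values from 0.00021 to 0.17, and without both P15 arrays lacking the spike-in the adjusted p was 0.88. It also missed the threshold with replicate number as a block (adjusted p = 0.065). The call of P15 minus P10 was lost without P10 replicate 1 (-2.15, adjusted p = 0.068). It was also lost with cells picked as a covariate (-2.38, adjusted p = 0.43). P10 minus P7 passed without P15 replicate 1 (-1.79, adjusted p = 0.0041). That step also passed with the mean of probe sets (-1.70, adjusted p = 0.021) and with the actin drop as a covariate (-1.81, adjusted p = 0.038). The dimmer probe set, 1455230_at, read 6.53, 5.44 and 5.12 at P7 and 3.66, 3.66 and 3.56 at P40, where it was at background. It exceeded 5 on the P7 arrays alone and passed the filter only through them. Its limma calls as lower for P40 minus P7 (adjusted p = 0.00087) and for P10 minus P7 (-1.60, adjusted p = 0.044) therefore add no weight.

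Cacng5 encodes gamma-5, a TARP of the second type. Probe set 1434785_at read 8.87, 7.36 and 8.69 at P7, 8.96, 7.94 and 8.31 at P10, 6.79, 3.08 and 2.69 at P15, 2.36, 2.52 and 2.47 at P25, and 2.29, 2.28 and 2.43 at P40. P7 and P10 overlapped, P25 and P40 were at background, and P15 was split, with replicate 1 alone over 5. The level was at least 9.88-fold lower at P40 than at P7 (adjusted p = 2.9e-05, limma). The only step called was P15 minus P10 (adjusted p = 0.0074), with levels of 4.18 ± 2.26 at P15, where the mean was under 5, and 8.41 ± 0.52 at P10 (SD, n = 3 each). The P15 arrays at background are those that lack the spike-in signal, and without both of them the step was not called (adjusted p = 0.36) and P25 minus P15 was called instead (adjusted p = 0.0042). The call from P10 to P15 was also lost with cells picked (adjusted p = 0.27) or the actin drop (adjusted p = 0.054) as a covariate. At P15, replicate 1 was the lowest array for Cacng4 and the highest for Cacng5, so the arrays of this age were not shifted the same way for both genes. The second probe set of Cacng5, 1426330_at, stayed between 2.37 and 2.47.

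Cacng3 and Cacng8 encode gamma-3 and gamma-8, TARPs best known from excitatory neurons of the forebrain and hippocampus, and Cacng7 encodes gamma-7, of the second type. Their probe sets did not exceed 5 on any array. Cacng3 lay between 2.00 and 2.56, the brighter probe set of Cacng7 between 2.24 and 3.55, and that of Cacng8 between 2.22 and 4.0. The dimmer probe sets of Cacng7 and Cacng8 stayed between 0.97 and 1.03. A probe set at background sets no bound on a transcript that its probes do not reach.

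**Figure D3:**
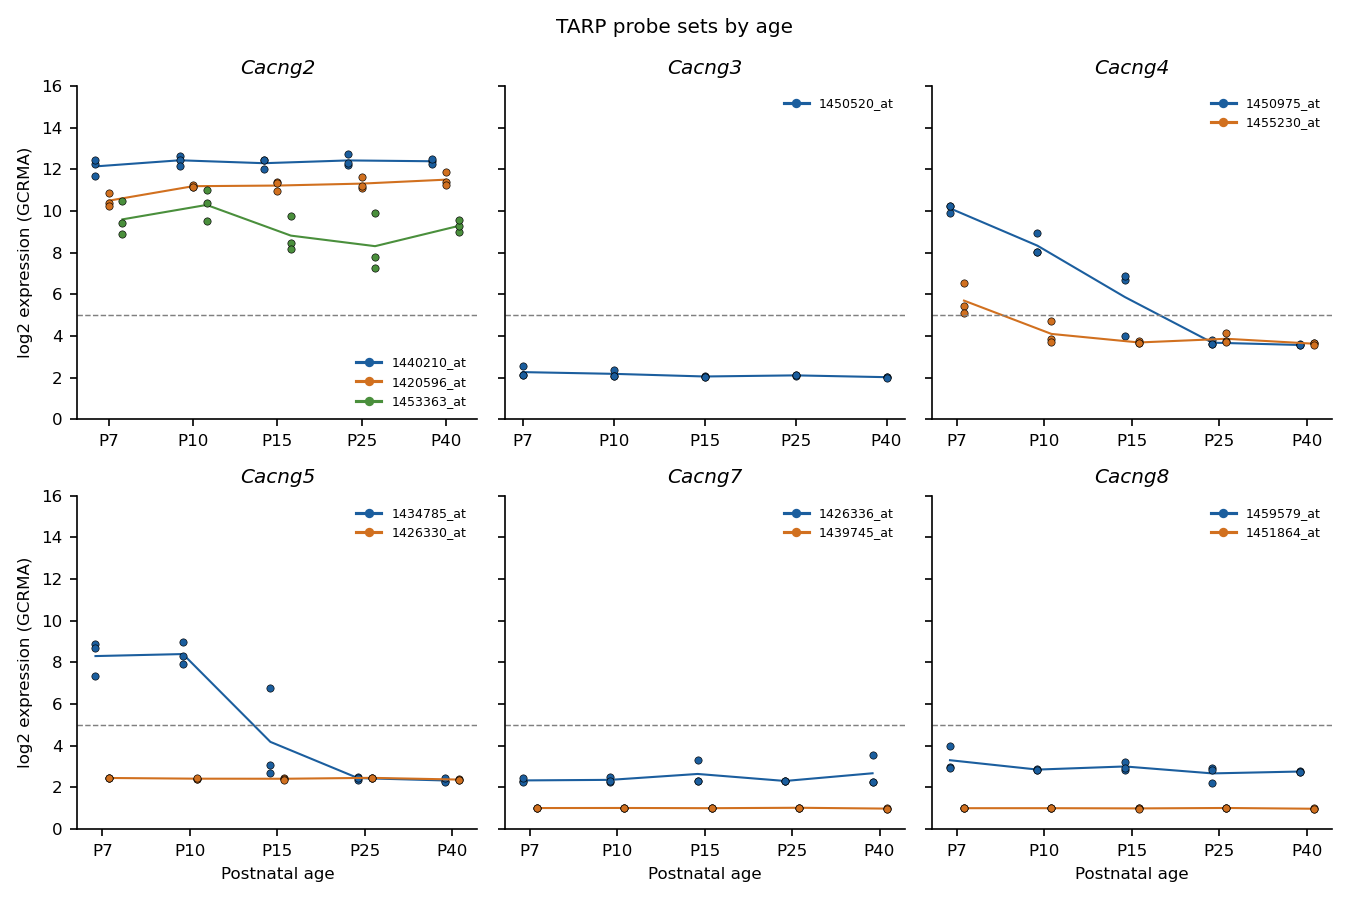
log2 expression of each TARP probe set on each of the 15 arrays, by postnatal age; points are arrays, lines join age means, and the dashed line is the limit of 5. Cacng4 and Cacng5 lie under 5 on all P25 and P40 arrays, Cacng2 stays over 5 throughout, and Cacng3, Cacng7 and Cacng8 are under 5 on every array.

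By step, 17.8% of all genes were called in at least 1 of the 4 steps between neighbouring ages, and so were 2 of the 7 tested members, Cacng4 and Cacng5. Both passed the filter through the ages where they are high, so this count is not read against that share. For P10 minus P7, limma called 0 of 7 members, with 3 at an unadjusted p under 0.05, against 3.6% of all genes. For P40 minus P25 it called 0 of 7, with 1 at an unadjusted p under 0.05, against 0.673% of all genes. Read per probe set, 15 of the 22 member probe sets were tested, and 4 were called higher and 3 lower for P40 minus P7. Over all 15381 probe sets tested, 41.9% were called, 26% higher and 15.9% lower. The 3 called lower belong to Cacng4 and Cacng5 and passed the filter only through the ages where they are high. They had to differ, so the count of lower calls is not read against that share.

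**Figure D4:**
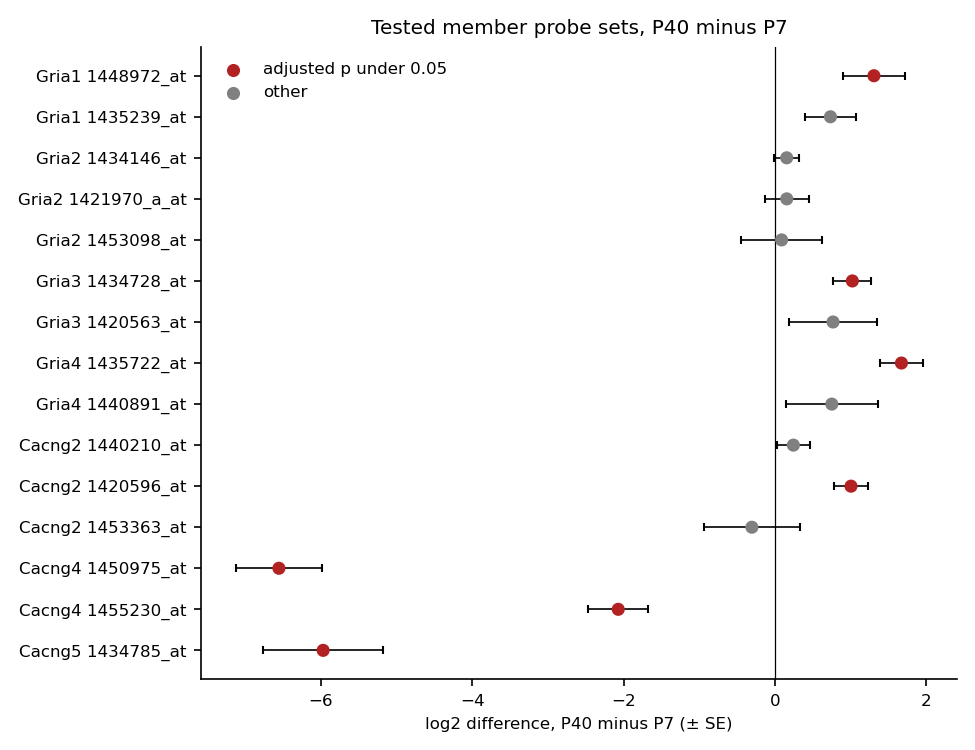
log2 difference, P40 minus P7, with its standard error for each of the 15 tested probe sets of the member genes; red marks an adjusted p under 0.05. The 3 probe sets of Cacng4 and Cacng5 lie between -6.56 and -2.07, and no other probe set lies under -0.30.

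Across the 15 arrays, which share ages and array scaling, Cacng4 and Cacng5 went together (r = 0.84), and Gria4 ran against both (r = -0.82 with Cacng4 and -0.88 with Cacng5). Cacng4 exceeded 5 on 8 arrays and Cacng5 on 7. Every r with either gene, also those below, thus sets early levels against background values and is only a description. The genes most like each called member over the 15 arrays were also listed, by Pearson r among all tested genes. Closest to Gria4 were Nsf (r = 0.979), the ATPase that disassembles SNARE complexes and binds the GluA2 tail, and the kinase Ttbk2 (0.976). Closest to Cacng4 were the histone demethylase Kdm2b (0.975) and the collapsin response protein Crmp1 (0.974), and closest to Cacng5 were the collagen Col22a1 (0.972) and the cell surface protein Cd24a (0.95). For Gria1 they were Pfdn6 (0.913) and Nceh1 (0.867), and for Gria3 Pnpla3 (0.826) and Enah (0.803).

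AMPA receptors also depend on many partner proteins, which were described from a list of 81 genes, 73 of them tested. For P40 minus P7, 30 (41.1%) were called higher, 14 (19.2%) lower and 29 not, against 27.5% and 17.6% of all genes, and the median log2 difference was 0.46 against 0.18 over all genes. The list was chosen with earlier results known, so nothing particular to it is read from these shares. Among 16 other auxiliary and assembly genes, 8 (50%) rose and 5 (31.2%) fell, against 27.5% and 17.6% of all genes. Of these, Cnih2, Cnih3, Gsg1l and Shisa6 were at background at P7 or P40 and passed the filter on low values only through other ages. Their calls add no weight to these counts. Cnih3 and Cnih2 encode cornichons, auxiliary subunits that slow receptor closing. Cnih3 read 7.05 ± 0.46 at P40 and 2.41 ± 0.39 at P7 (adjusted p = 9.3e-05, limma), and Cnih2 read 4.39 ± 0.46 at P40 and 7.30 ± 1.21 at P7 (adjusted p = 0.00038; SD, n = 3 each). Cnih3 did not climb steadily: it was at 6.13 ± 1.91 at P15 and at background at P25, with 3.34 ± 0.38. The steps P15 minus P10 (adjusted p = 0.017), P25 minus P15 (adjusted p = 0.034) and P40 minus P25 (adjusted p = 0.031) were called by limma. The P25 arrays were those low in actin, and the part of that in the dip was not tested. The alternative fits were not read for these steps. Shisa6, an auxiliary subunit that holds receptors at the synapse, read 3.22 ± 0.57 at P40 and 8.36 ± 1.12 at P7 (adjusted p = 2e-06), and its relative Shisa7 fell by 0.95 on the log2 scale (adjusted p = 0.01). Gsg1l, an auxiliary subunit of the claudin fold, like the TARPs, read 8.22 ± 0.23 at P40 and 3.90 ± 0.32 at P7 (adjusted p = 0.00031); it was chosen after its values were seen. Porcn, which acts in receptor assembly, rose by 1.40 (adjusted p = 8.4e-05), and the lipase Abhd12 rose by 1.5 (adjusted p = 1.3e-05).

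**Figure D5:**
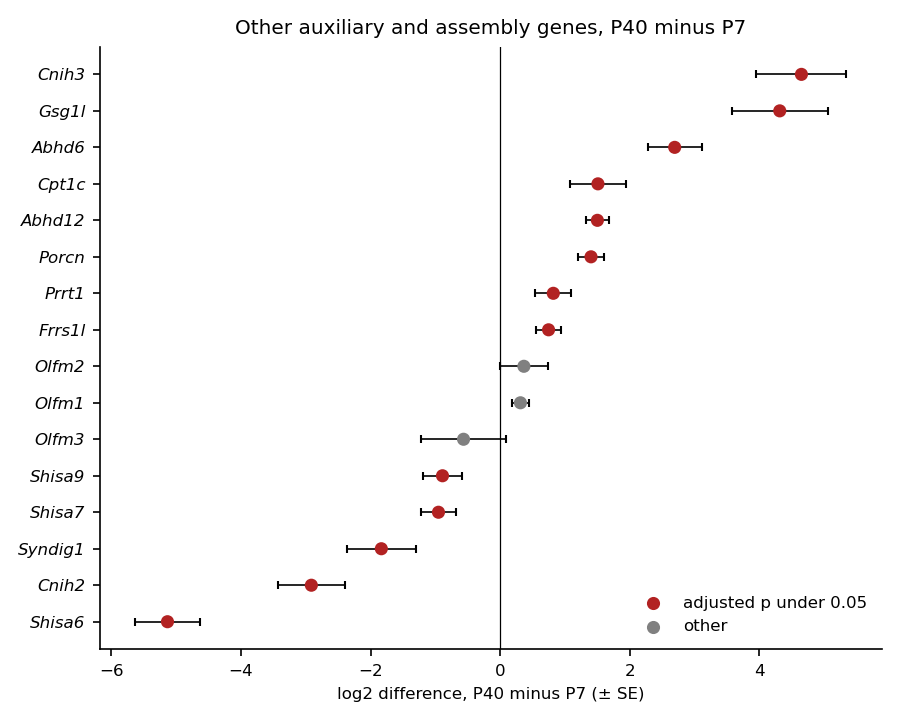
log2 difference, P40 minus P7, with its standard error for the 16 tested auxiliary and assembly genes other than the TARPs listed as members; red marks an adjusted p under 0.05. Cnih3 and Gsg1l lie at 4.65 and 4.31, and Cnih2 and Shisa6 at -2.91 and -5.13; genes at background at one age have differences that are no measure of fold.

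Of 30 scaffold and trafficking genes, 9 (30%) rose, 4 (13.3%) fell and 17 were not called. The share called, 43.3%, was close to the 45.2% of all genes. The lipid phosphatase Sacm1l rose by 1.68 (adjusted p = 1e-06), Napa, the partner of Nsf in SNARE disassembly, by 1.46 (adjusted p = 5.5e-05), and Iqsec1, an exchange factor in receptor endocytosis, by 2.22 (adjusted p = 1.4e-05). Hip1, an endocytic adaptor, read 4.52 ± 0.97 at P40 and 9.92 ± 0.18 at P7 (adjusted p = 1e-06). Grip1, a scaffold that binds GluA2 and GluA3, fell by 1.25 (adjusted p = 0.0048), and the ubiquitin ligase Nedd4l fell by 1.16 (adjusted p = 0.00071).

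Of 11 genes for extracellular clustering and adhesion, 4 (36.4%) rose, 3 (27.3%) fell and 4 were not called, against 27.5% and 17.6% of all genes. Among them, Nptx2 was at background at P40 and passed the filter only through other ages, so its call adds no weight to the count. Lrrc4 and Lrrtm2, postsynaptic adhesion proteins, rose by 2.73 (adjusted p = 3e-05) and 2.05 (adjusted p = 0.00032). Nptx1 and Nptx2 encode secreted pentraxins that cluster AMPA receptors, and they went opposite ways. Nptx1 read 7.68 ± 0.56 at P40 and 4.86 ± 1.05 at P7 (adjusted p = 0.00084), while Nptx2 read 2.85 ± 0.30 at P40 and 6.06 ± 1.68 at P7 (adjusted p = 0.0023). N-cadherin, Cdh2, fell by 2.03 (adjusted p = 6.7e-05), and Lrrtm1 fell by 0.97 with an adjusted p of 0.045, a call lost in 14 of the alternatives tried.

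Both tested genes of RNA editing were called higher, against 27.5% of all genes, and so small a list is not read against that share. Adarb1, the enzyme that edits the codon that limits calcium flow in Gria2 transcripts, rose by 2.53 (adjusted p = 8.4e-05), reading 8.56 ± 0.27 at P40 and 6.04 ± 0.05 at P7. Adar rose by 1.02 (adjusted p = 0.0037), but the mean of its probe sets differed by -0.08 (adjusted p = 0.79). The Adar call was also lost with the actin drop as a covariate (0.63, adjusted p = 0.12). Of 14 kinases and phosphatases, 7 (50%) rose, 2 (14.3%) fell and 5 were not called, against 27.5% and 17.6% of all genes. Camk2a, whose product phosphorylates GluA1, rose by 2.08 (adjusted p = 0.00014), and Camk2g rose by 1.23 (adjusted p = 7e-04). The kinase Stk39 rose by 2.52 (adjusted p = 0.00032). Ppp3ca, a catalytic subunit of calcineurin, fell by 0.85 (adjusted p = 0.00081), and the tyrosine kinase Fyn fell by 0.70 (adjusted p = 0.012).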

How the data were processed

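RNA of hand-picked GFP-labelled neurons, 0.3 to 1 ng per sample per the labels, went through T7 amplification and Affymetrix mouse whole-genome arrays. Each probe set has 1 deposited log2 value per array, made by the authors with GCRMA per the submitters' processing notes; its version is not given in the sources used here. They ran from 0.51 to 16.13 with array medians of 3.21 to 3.46 and were used as deposited. The number of arrays limits the precision.

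Of 45101 probe sets, 34945 had 1 gene, 932 several, 9160 none and 64 were controls, by GEO's platform annotation, which can be old. A gene was read from its single-gene probe set of highest mean and tested if over 5 on at least 3 of 15 arrays, which kept 9663 of 18193 genes. All 15381 such probe sets were also tested. limma 3.58.1 in R 4.3.3 fitted a mean per age to all 15 arrays, with trended empirical Bayes moderation (10 residual and a median of 4.85 prior degrees of freedom). Tests were two-sided, adjusted by Benjamini-Hochberg within a contrast and called under 0.05. SE is the moderated standard error. A fold is given where both means exceed 5, otherwise a bound against 5 or the levels. The test code was tested on simulated data. The members, the 5 lists of partner genes and the tests were chosen with earlier results of these data known. Named genes were all members, in each partner list the 3 smallest adjusted p per direction, the 2 genes most like each called member, and identity markers; any other was chosen after its values were seen. Shared replicate numbers were tried as a block. Alternatives covered scaling, filter, probe set choice, variance model, array weights, the actin drop, cells picked and left-out arrays. Python 3.11.15, pandas 2.3.3 and matplotlib 3.10.9 were used for tables and figures.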

Additional observations from a re-analysis of the deposited data

How the results depend on the processing

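Gria4 was called higher for P40 minus P7 in all 28 alternative fits, with fitted log2 differences of 0.91 to 1.93. Cacng4 and Cacng5 were called lower in all 28, at -7.72 to -4.31 and -6.45 to -3.02, set against background. Both TARPs passed the filter only through the ages where they are high, so their calls in these fits add no weight. The number of genes called, 4365, was 8295 with no filter, which tests more genes, and 2650 with the actin 3' to 5' drop as a covariate, under which 28 partner genes were called, against 44. The 2 members called in a step became 5 with array weights, 1 with the actin drop and 0 with cells picked as a covariate (4 members at an unadjusted p under 0.05, limma), and 2 to 4 when arrays were left out one at a time, with 4 without P15 replicate 1. The 1 subunit pair that passed became 0 with the mean of probe sets and 1 to 4 when arrays were left out, for which the exact test was run with unequal groups although the design foresaw no test there. The cause of these changes was not tested. Among the members, signs turned for these values, which were not called: Gria2 at -0.06 with equal medians; its 1421970_a_at at -0.01 (quantile normalization), -0.06 (equal medians) and -0.22 (actin drop); its 1453098_at at -0.15, -0.13 and -0.24 in the same settings and from -0.19 to 0.53 with arrays left out; 1440891_at of Gria4 at -0.16 (actin drop); and 1453363_at of Cacng2 at 0.58 (actin drop), 0.12 (cells picked) and from -0.66 to 0.13 with arrays left out. The median over all genes was 0.18 as reported, 0.01 with quantile normalization and -0.04 with equal medians, while calls in the higher direction were 61.0% of the total in the fit reported, 51.4% and 49.2% under those scalings.

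Arrays of the same replicate number did not deviate together: 3 of 30 same-numbered pairs correlated over 0.1, with r from -0.40 to 0.27. With replicate number as a block, 4159 genes were called and, of the members' calls, the Cacng4 step P25 minus P15 (-2.19, adjusted p = 0.065) and P40 minus P25 for 1420563_at of Gria3 (2.49, adjusted p = 0.075) were lost.

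Of the 44 partner genes called, 39 were tested with the mean of probe sets, where 8 lost the call and 4 turned sign (Adar, Dlg1, Lrrtm1 and Prkcb); with the actin drop 16 lost it and 0 turned sign. Among the partner genes named with values, these were Adar (-0.08), Nedd4l (-0.26) and Lrrtm1 (0.02) with the mean of probe sets, and Adar (0.63), Grip1 (-0.86) and Shisa7 (-0.81) with the actin drop. With an array left out, Fyn lost its call without P7 replicate 3 (-0.57). Lrrtm1 lost its call without P7 replicate 1 or 2, P15 replicate 1 or 3, P25 replicate 2, or P40 replicate 1 or 3, at -0.97 to -0.68. A log2 difference was counted as moved if it shifted by more than the log2 of 1.5, which is a 1.5-fold change. With the mean of probe sets this held for Abhd12 (2.18), Fyn (-1.86), Iqsec1 (1.30), Lrrtm2 (1.15), Nptx1 (1.37), Nsf (1.22, against 2.23), Shisa6 (-2.59) and Stk39 (1.67). It held there also for Adar, Nedd4l and Lrrtm1, at the values given above. With the actin drop it held for Cnih3 (3.71), Gsg1l (2.86), Nsf (1.63) and Stk39 (1.69). Without P7 replicate 2 the log2 difference was -3.61 for Cnih2, -5.72 for Shisa6 and -4.03 for Nptx2, and without P7 replicate 1 it was -2.35 for Nptx2.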
